A study of Mus musculus with 6 samples.

Results

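Copying the genome once per cell cycle needs a set of proteins that load a helicase at origins, open the DNA, copy both strands and supply the deoxynucleotides. A list of 37 mouse genes for these proteins was examined in the prospective lens of embryos with and without Pax6, the transcription factor without which no lens forms. All probes whose annotated gene symbol is on the list were taken, whatever their values. Of the 37 genes, 35 had at least 1 matched probe (65 probes in all), and 34 genes with 53 probes passed the filter on dim probes. Mcm3 and Gins1 had no matched probe and are not analysed here, and Orc1 was detected on 0 of 6 arrays. The array as a whole held 46632 probes, of which 19381 passed the filter.

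The Pax6 knockout group was 3 embryos labelled Pax6-/-, and the wild type group was 3 embryos without the mutation. All 6 were at embryonic day 9.5, on a mixed FVB and 129 background. The knockout tissue is labelled surface ectoderm and the wild type tissue lens placode, the thickened head ectoderm that forms the lens. Each value comes from 1 embryo, from laser-cut 10 micrometre sections of the left and right prospective lens, after amplification of 15 ng of RNA and hybridisation to an Illumina BeadArray. The labels do not say how the Pax6 allele was made or which part of the gene it lacks.

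In each cell cycle the origin recognition complex marks origins, and Cdc6 and Cdt1 load the ring of Mcm2 to Mcm7 there. Cdc45 and the GINS complex turn that ring into the active helicase, polymerase alpha-primase starts each strand, and polymerases epsilon and delta extend it on the Pcna clamp. Many of these genes are transcribed together near the start of S phase under E2F transcription factors, and the lens placode is a proliferating epithelium at this stage.

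The letters that E2F factors are known to recognise stand in several of the promoters, and 4 genes are shown for how they differ. RefSeq windows (build GRCm38.p6) of 300 bases, from 250 before to 50 after the annotated start, were at hand for 30 of the 37 genes, with 37 windows among them. The 4 words TTTGGCGC, TTTCGCGC, TTTCCCGC and TTTGCCGC were searched on both strands, and CCAAT, the word read by NF-Y, likewise. An E2F word stood in 12 of the 37 windows (32.4%), against 2.26% of all 32851 windows, and CCAAT in 23 (62.2%), against 37.4%. The 170 bases before the start of Mcm5, Mcm6, Cdc6 and both annotated starts of Fen1 follow, with E2F words and CCAAT, on either strand, in capitals.
Mcm5 (chr8:75109339-75109508, plus strand): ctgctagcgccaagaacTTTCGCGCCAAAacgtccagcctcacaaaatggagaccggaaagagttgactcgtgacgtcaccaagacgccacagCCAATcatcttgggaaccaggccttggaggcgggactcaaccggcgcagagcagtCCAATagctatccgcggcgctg
Mcm6 (chr1:128359706-128359875, minus strand): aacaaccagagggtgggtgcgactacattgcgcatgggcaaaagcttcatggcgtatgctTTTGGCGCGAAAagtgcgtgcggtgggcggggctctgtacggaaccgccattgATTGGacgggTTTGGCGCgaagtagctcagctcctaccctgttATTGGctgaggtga
Cdc6 (chr11:98907981-98908150, plus strand): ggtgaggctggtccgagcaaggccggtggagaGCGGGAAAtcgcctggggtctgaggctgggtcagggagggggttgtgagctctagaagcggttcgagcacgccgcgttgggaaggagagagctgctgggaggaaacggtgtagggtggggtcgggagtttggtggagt
Fen1, upstream start (chr19:10204394-10204563, minus strand): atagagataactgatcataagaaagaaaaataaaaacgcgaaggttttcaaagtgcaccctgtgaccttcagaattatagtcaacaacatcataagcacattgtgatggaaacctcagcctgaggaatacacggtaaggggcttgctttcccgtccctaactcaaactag
Fen1, downstream start (chr19:10203922-10204091, minus strand): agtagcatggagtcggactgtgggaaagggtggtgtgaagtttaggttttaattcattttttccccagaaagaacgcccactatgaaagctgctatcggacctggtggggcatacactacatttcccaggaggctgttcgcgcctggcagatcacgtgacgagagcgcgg
In Mcm5 and in Mcm6 an E2F word overlaps a second one on the other strand, and both promoters also hold CCAAT. Cdc6 holds 1 E2F word here, and neither Fen1 stretch holds any of these letters. A match is only a match of letters, and no binding was measured.

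The arrays were alike in depth of detection, with 38.8% to 41.1% of probes detected in knockout and 39.9% to 41.6% in wild type. Knockout 1 had the lowest median raw signal (41.7, against 47.3 to 49.8 on the other 5 arrays) and stood apart on the first principal component. Pax6 itself, by its brightest probe, read 9.31 ± 0.31 in knockout and 10.05 ± 0.33 in wild type (SD, n = 3 each; limma adjusted p = 0.428). The labels give no sex. Xist was detected on 0 knockout and 3 wild type arrays, while Kdm5d, on the Y chromosome, was detected on 3 knockout and 0 wild type arrays, so genotype and sex cannot be told apart. Pola1 is the 1 listed gene on X among those tested. Of the 12 surface ectoderm markers, 12 were detected, and of 10 lens placode markers 8 were, with Foxe3 and Cryaa at 0 arrays. Lens placode markers, Pax6 among them, averaged 7.98 to 8.08 in knockout and 8.91 to 9.22 in wild type. They were not alike, with 7 of 8 lower in knockout and Bmp4 higher, by 0.90 log2 units. Maf (-3.86) and Prox1 (-2.22) differed most and Meis1 (-0.06) least.

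Values below are normalized log2 intensities, and each difference is the knockout mean less the wild type mean, with its standard error (SE) and 95% interval from limma. At a limma adjusted p of 0.05 (Benjamini-Hochberg), 0 of the 34 replication genes were called, beside 0.157% of all 14686 genes and unnamed probes. Only Fen1 had an unadjusted p under 0.05, 1 of 34 genes (2.94%), against 7.44% of everything tested, of which 3.96% was lower in knockout as Fen1 was. The groups did not overlap for Fen1, Rfc4 and Rfc2, 3 of 34 genes (8.82%), against 12.1% of everything tested. These shares of single-gene calls were no higher than the background.

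More of the list was lower than higher. By the brightest probe of each gene, 26 of the 34 were lower in knockout (76.5%) and 8 higher, whereas 49.5% of everything tested and 52% of the genes with a symbol were lower. With arrays scaled to a common median in place of quantiles, 28 of the 34 and 69.3% of everything tested were lower. The median difference of the 34 was -0.068, against 0.0023 over everything tested. The mean over the 34 genes was 8.38, 8.22 and 8.37 in knockout 1, 2 and 3, and 8.31, 8.38 and 8.48 in wild type 1, 2 and 3, so the groups overlapped. That count moved with single arrays. Without wild type 3, 18 of 34 were lower, and without knockout 2, 20 of 34 were. Without knockout 1, the array that stood apart, 24 of 34 were lower with a median of -0.11. In bulk tissue, fewer cells in S phase and less RNA per cell cannot be told apart.

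Intervals give the range of differences these arrays leave possible. For 26 of the 34 genes (76.5%) the 95% interval lay within 2-fold either way, against 63.5% of everything tested. For 11 of them (32.4%) it lay within 1.5-fold, against 24.4%. The spread between embryos of 1 genotype, pooled over both, had a median SD of 0.19 over the 34 genes and 0.32 over everything tested. The 34 genes were also brighter, with array means of 8.22 to 8.48, against 7.01 to 7.04 over everything tested. Neither the spread nor the interval shares were compared at like brightness. Pcna and Mcm5 varied least (pooled SD 0.088 and 0.11), and Mcm10 and Prim1 varied most (0.77 and 0.67). The standard error over beads of 1 probe on 1 array was 2.33% to 8.32% of its raw signal, from 20 to 71 beads.

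**Figure D1:**
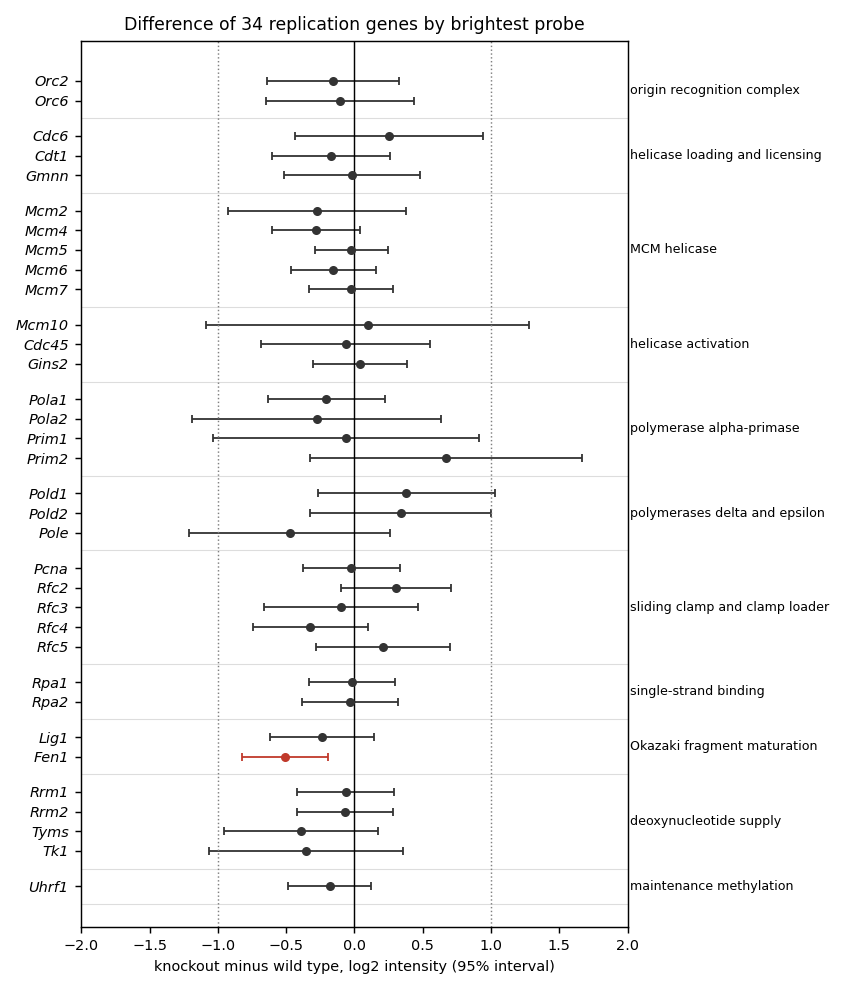
Difference between knockout and wild type on the log2 scale for each of the 34 replication genes, by brightest probe, grouped by role; bars are 95% intervals and dotted lines mark 2-fold. Fen1 (red) is the 1 gene whose interval leaves out 0, and 26 of the 34 intervals lie within the dotted lines.

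Both origin recognition genes tested were slightly lower in knockout, without passing. Orc2, a subunit of the complex that marks origins, differed by -0.15 (SE 0.21) and was detected on 2 knockout and 3 wild type arrays. Orc6, the smallest subunit, differed by -0.11 (SE 0.24), with knockout 2 lowest at 7.20. The loading factors went in no common direction. Cdc6, the ATPase that helps to load the helicase, was 0.25 higher in knockout (SE 0.30), and its partner Cdt1 was -0.17 (SE 0.19). Geminin (Gmnn), the inhibitor that keeps Cdt1 from loading the helicase again in the same cycle, differed by -0.018 (SE 0.22, interval -0.52 to 0.48). None of these 5 passed the test (limma adjusted p 0.932 to 0.994).

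The MCM subunits form the ring-shaped motor of the helicase, and 5 of its 6 were measured. All 5 were a little lower in knockout by their brightest probes, by -0.28 to -0.022, and none passed (limma adjusted p 0.742 to 0.987). Mcm4 read 11.31, 11.33 and 11.42 in knockout embryos 1 to 3, against 11.35, 11.74 and 11.82 in wild type embryos 1 to 3. Wild type 1 lay within the knockout values, and the difference was -0.28 (SE 0.14, interval -0.61 to 0.040). Mcm6 read 10.74, 10.76 and 10.81 in knockout and 10.92, 11.16 and 10.70 in wild type, so wild type 3 lay below every knockout embryo (difference -0.16, SE 0.14). In both genes the knockout embryos were close together and the wild type ones more spread.

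Mcm5 and Mcm7 had the smallest differences of the ring. Mcm5 read 11.27, 11.15 and 11.12 in knockout and 11.05, 11.25 and 11.30 in wild type, a difference of -0.022 (SE 0.12) with an interval of -0.29 to 0.24. Mcm7 read 10.37, 10.40 and 10.57 in knockout and 10.26, 10.55 and 10.61 in wild type, a difference of -0.026 (SE 0.13). The groups overlapped for both. Mcm2 was more variable, at 10.01, 9.59 and 9.29 in knockout and 9.36, 10.46 and 9.89 in wild type (difference -0.27, SE 0.28). Without wild type 2, the embryo with the highest Mcm2 value, that difference was 0.0049.

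Of the factors that switch the helicase on, none passed. Cdc45, which joins the MCM ring in the active helicase, differed by -0.065 (SE 0.27), and Gins2, a GINS subunit, by 0.039 (SE 0.15, interval -0.31 to 0.38). Mcm10, which helps to activate the helicase and is no part of the ring, differed by 0.096 (SE 0.52). Its SD was 0.71 in knockout and 0.83 in wild type, and its interval of -1.09 to 1.28 is wider than 2-fold either way.

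The polymerase alpha-primase subunits differed in sign. Prim2, the large primase subunit, read 7.52, 6.80 and 6.07 in knockout and 6.52, 5.70 and 6.17 in wild type. Its difference of 0.67 was the largest of the 34, but knockout 3 lay below 2 wild type embryos and the SE was 0.44 (limma adjusted p = 0.844). Prim1, the catalytic primase subunit, was -0.059 (SE 0.43), with 6.53 in knockout 1 against 7.74 and 8.35 in knockout 2 and 3. Pola1, the catalytic subunit of polymerase alpha, was -0.21 (SE 0.19) and its partner Pola2 was -0.28 (SE 0.40), with 1 high Pola2 value of 6.62 in wild type 3.

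The listed subunits of polymerases delta and epsilon did not pass either. Pold1, the catalytic subunit of polymerase delta, read 8.24, 8.37 and 7.77 in knockout and 8.05, 7.98 and 7.21 in wild type, a difference of 0.38 (SE 0.28, limma adjusted p = 0.863). Pold2, its accessory subunit, was also higher, by 0.34 (SE 0.29), with knockout 1 highest at 9.40. Pole, the catalytic subunit of polymerase epsilon, read 6.06, 5.71 and 6.31 in knockout and 6.46, 6.25 and 6.80 in wild type. Knockout 3 lay just above wild type 2, and the difference was -0.48 (SE 0.32, limma adjusted p = 0.851). Subunits outside the list of 37 did not follow these signs throughout, with Pold3 at -0.13 (SE 0.17), Pole2 at -0.033 (SE 0.31), Pole4 at -0.18 (SE 0.27) and Pole3, described further on, at 0.90.

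Pcna varied least between embryos of 1 genotype among the 34. Pcna, the sliding clamp that holds the polymerases on DNA, read 8.39 to 8.54 in knockout and 8.39 to 8.59 in wild type, a difference of -0.022 with an interval of -0.38 to 0.33. The replication factor C subunits that load it differed in sign. Rfc4 read 7.82, 8.11 and 8.10 in knockout and 8.43, 8.17 and 8.39 in wild type, with every knockout embryo below every wild type one (difference -0.32, SE 0.18, limma adjusted p = 0.794). Rfc2 read 8.33, 8.42 and 8.56 in knockout and 8.23, 7.93 and 8.25 in wild type, with every knockout embryo above (difference 0.30, SE 0.18, limma adjusted p = 0.808). Rfc3 was -0.10 (SE 0.25) and Rfc5 0.21 (SE 0.21), the latter by 1 of 3 probes, with the others at 0 arrays. The single-strand binding proteins Rpa1 (-0.018, SE 0.14) and Rpa2 (-0.032, SE 0.15) differed little, with both intervals within 1.5-fold.

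Fen1, the flap endonuclease that trims the ends of lagging-strand fragments, had the smallest p of the list. It read 8.89, 9.18 and 9.17 in knockout, against 9.59, 9.56 and 9.62 in wild type. Every knockout embryo lay below every wild type one, and the wild type embryos were close together (SD 0.031, against 0.16 in knockout). The difference was -0.51 (SE 0.14, interval -0.82 to -0.19), 1.42-fold lower, with an unadjusted p of 0.00556 and a limma adjusted p of 0.396 over everything tested. It did not pass under any of the 18 alternatives run (limma adjusted p 0.239 to 0.834). Its difference ran from -0.71 to -0.41 over them. Several of them alter only the filter, the probe summary or the test, and could only return the same -0.51. Fen1 has a single probe here, whose raw signal was 420, 594 and 616 in knockout 1, 2 and 3 and 867, 841 and 841 in wild type 1, 2 and 3. The bead standard errors of those signals were 3.41% to 4.65%.

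Lig1, the ligase that seals the same fragments after Fen1, read 8.81, 9.27 and 9.21 in knockout and 9.23, 9.47 and 9.30 in wild type. Knockout 1 was lowest, and without it the difference was -0.091, against -0.24 (SE 0.17) with all embryos. Uhrf1, which guides maintenance DNA methylation to newly copied DNA, read 11.40, 11.25 and 11.07 in knockout and 11.48, 11.53 and 11.25 in wild type (difference -0.18, SE 0.13). The groups overlapped for both genes, and neither passed (limma adjusted p = 0.854 and 0.862).

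Genes of deoxynucleotide supply were all on the lower side, by -0.39 to -0.064, with none past the test. Tyms, the thymidylate synthase, read 8.14, 7.49 and 7.62 in knockout and 7.85, 8.19 and 8.39 in wild type (difference -0.39, SE 0.25, limma adjusted p = 0.833). Knockout 1 lay within the wild type range and the other 2 knockout embryos below it. The thymidine kinase Tk1 was -0.35 (SE 0.31). The ribonucleotide reductase subunits Rrm1 (-0.064, SE 0.16) and Rrm2 (-0.071, SE 0.15) differed little, with intervals of -0.42 to 0.29 and -0.42 to 0.28. For Rrm2 this rests on 1 of 3 probes, the others being detected on 0 arrays.

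**Figure D2:**
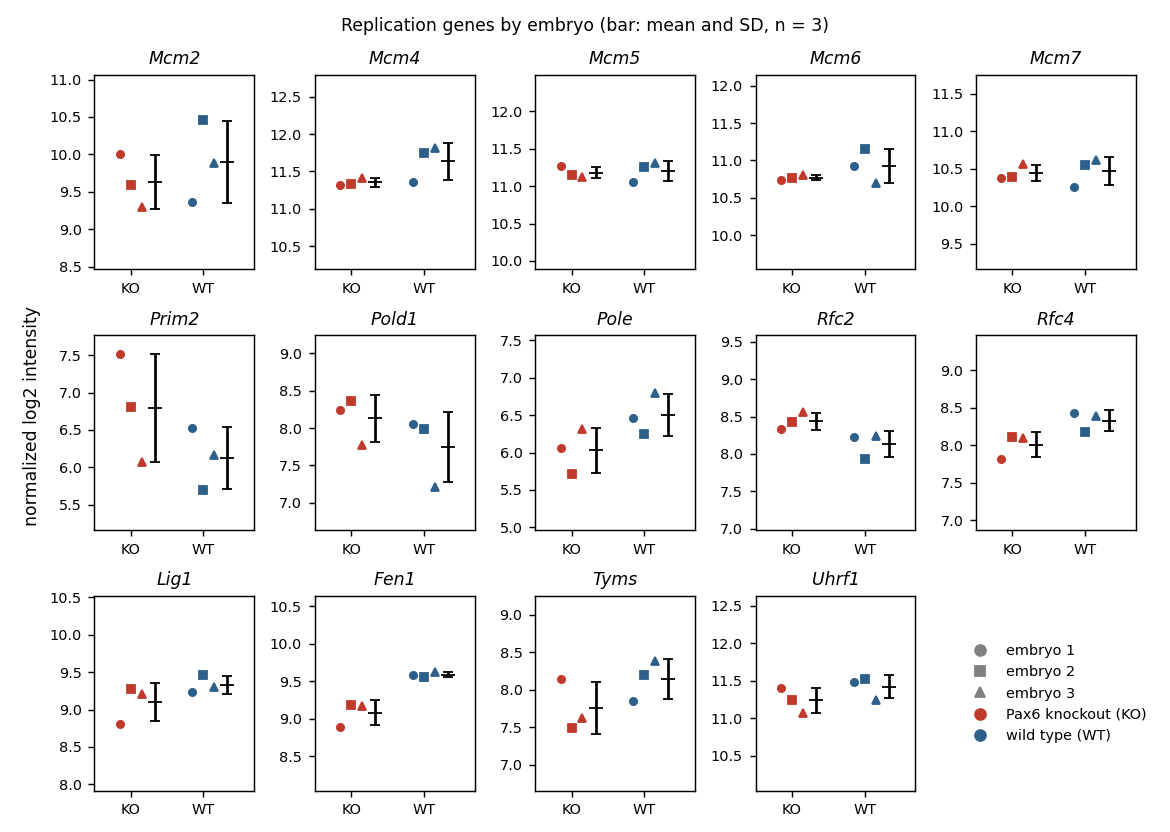
Normalized log2 intensity of 14 replication genes in each embryo, knockout (KO, red) left of wild type (WT, blue), with mean and SD beside the points; every panel spans the same log2 range. The groups stand apart in Fen1, Rfc2 and Rfc4 and overlap in the other 11 panels.

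Probes of the same gene often disagreed in sign. Of the 14 genes with more than 1 detected probe, 3 had all probes on 1 side, each of them lower in knockout (Rfc4, Rpa2 and Rrm1), and 11 had probes of both signs. Over all 53 detected probes, 37 were lower in knockout (69.8%), against 50.6% of all 19381 detected probes. Of the 53, 0 passed the adjusted threshold, beside 0.0929% of all probes, and 1 had an unadjusted p under 0.05, beside 7.22%. The groups stood apart for 4 of the 53 (7.55%), against 12.0% of all probes.

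In 5 genes the probes spanned more than 0.5. The second Rfc2 probe was -0.76 (SE 0.43), against 0.30 by the brightest, so the higher value of Rfc2 in knockout rests on 1 probe. The second Mcm4 probe was 0.38 higher (SE 0.46), against -0.28, and the other 2 Mcm6 probes were -0.33 (SE 0.28) and 0.37 (SE 0.44). The 3 Mcm10 probes were 0.096, -0.10 and -0.58. The second Rfc4 probe was lower in knockout as the first was, at -0.47 (SE 0.26, limma adjusted p = 0.794 with every probe tested). The second Rrm1 probe was -0.65 (SE 0.30), with its groups apart. Its values were 5.10, 5.17 and 5.02 in knockout and 6.45, 5.31 and 5.47 in wild type, detected on 1 knockout and 3 wild type arrays.

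Smaller spans with both signs were found in 7 more genes. Cdc6 was 0.25 and -0.23, Mcm7 -0.026 and 0.11, Cdc45 -0.065 and 0.33, and Rfc3 -0.10 and 0.089, brightest probe first. Among the genes with 3 detected probes, Gins2 was 0.039, -0.15 and -0.073, Lig1 -0.24, 0.14 and 0.043, and Tyms -0.39, -0.024 and 0.073. For Lig1 1 of 3 probes was lower in knockout, and for Tyms 2 of 3 were.

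**Figure D3:**
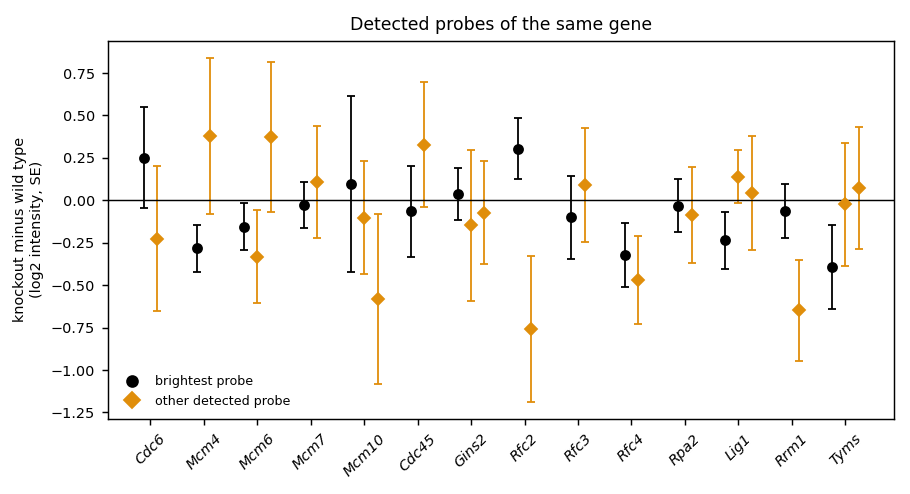
Knockout minus wild type on the log2 scale, with SE, for each detected probe of the 14 genes that had several; black circles are the brightest probe and orange diamonds the others. Rfc2, Mcm4 and Mcm6 have probes well to both sides of 0, while both Rfc4 probes lie below it.

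Of the 28 tested genes with a promoter window, the 10 with an E2F word had a median difference of -0.13 (8 lower) and the 18 without one -0.068 (15 lower). Mcm5, Mcm6 and Cdc6, whose promoters are printed above with such words, differed by -0.022, -0.16 and 0.25. Fen1, whose stretches hold none, differed by -0.51. By CCAAT, the 18 genes with the word had a median of -0.065 (16 lower) and the 10 without it -0.26 (7 lower). No test was run on either split.

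Other genes of replication and S-phase entry were examined from a second list. From a list of 77 such genes, 68 were tested and 0 passed over all genes. Of the 68, 42 were lower (61.8%, median -0.065), against 49.5% of everything tested and 52% of genes with a symbol. An unadjusted p under 0.05 was found for 5 (7.35%, against 7.44%) and groups apart for 9 (13.2%, against 12.1%), both near the share over everything tested. Rbl1, the pocket protein p107 that restrains E2F, had the smallest p. It read 9.21, 9.25 and 9.12 in knockout, against 8.46, 8.54 and 8.57 in wild type, with the groups well apart (difference 0.67, SE 0.14, limma adjusted p = 0.183). Its other probes were -0.023 and 0.42, with groups that overlapped, so the probes did not agree.

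Of the genes with the next smallest p in each direction, 4 are subunits of complexes named above. Orc3, an origin recognition subunit, was 0.66 higher (SE 0.23, second probe 0.18), and Pole3, a polymerase epsilon subunit, 0.90 higher (SE 0.37), but -0.33 by its second probe, whose groups were apart the other way. Rpa3, the smallest single-strand binding subunit, read 6.81, 7.58 and 7.73 in knockout and 8.16, 8.12 and 8.32 in wild type (difference -0.82, SE 0.27). Rfc1, the large clamp loader subunit, was -0.34 (SE 0.14) and Hells, a chromatin remodeller, -0.63 (SE 0.30). In these 5 genes the groups were apart by the brightest probe, and none passed (limma adjusted p 0.530 to 0.729).

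Mitosis genes were mostly lower in knockout. Of 26 tested, 19 were lower in knockout (73.1%), with a median of -0.23, against 49.5% of everything tested and 52% of genes with a symbol. An unadjusted p under 0.05 was found for 2 (7.69%, against 7.44%), near the share over everything tested. Groups were apart for 7 (26.9%, against 12.1%), and 0 passed, beside 0.157% of everything tested. Their mean was 8.06 to 8.15 over the knockout embryos and 8.26 to 8.42 over the wild type embryos, without overlap. The means of the 34 replication genes overlapped. Those of the second list, of other replication and S-phase genes, narrowly did not (8.01 to 8.07 in knockout, 8.08 to 8.10 in wild type). The mitosis values are by the brightest probe, and how they depend on probe or single arrays was not examined. Whether these lists differ from each other was not tested.

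Markers of other tissues differed between embryos as well. Of 10 red cell markers 5 were detected, and their mean was 7.26 to 8.59 in knockout and 6.34 to 7.75 in wild type. Gata1 and Klf1 were at 0 arrays. Of 14 optic vesicle and neuroepithelium markers 8 were detected, with means of 6.96 to 7.50 in knockout and 6.54 to 7.03 in wild type, and Vax2, Hes5 and Sox1 at 0 arrays. Head mesenchyme and neural crest markers (10 of 16 detected, Foxc1, Foxd3, Sox10, Col1a1 and Lum at 0 arrays) averaged 6.70 to 7.22 in knockout and 6.70 to 6.97 in wild type. Endothelial markers (5 of 9 detected, Cdh5 and Tek at 0 arrays) averaged 6.03 to 6.79 and surface ectoderm markers 8.10 to 8.41 in knockout, against 5.97 to 6.55 and 8.31 to 8.58 in wild type. By direction, 3 of 5 red cell markers were higher in knockout and 2 lower (median 1.54). Of the optic vesicle markers 7 of 8 were higher (median 0.51), and Sfrp2 was lower, at -1.13. Mesenchyme markers were higher in 7 of 10 (median 0.12) and endothelial ones in 4 of 5 (median 0.20). Surface ectoderm markers were lower in 8 of 12 (median -0.26), and 49.5% of everything tested was lower. The part of these markers in the differences above was not tested.

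**Figure D4:**
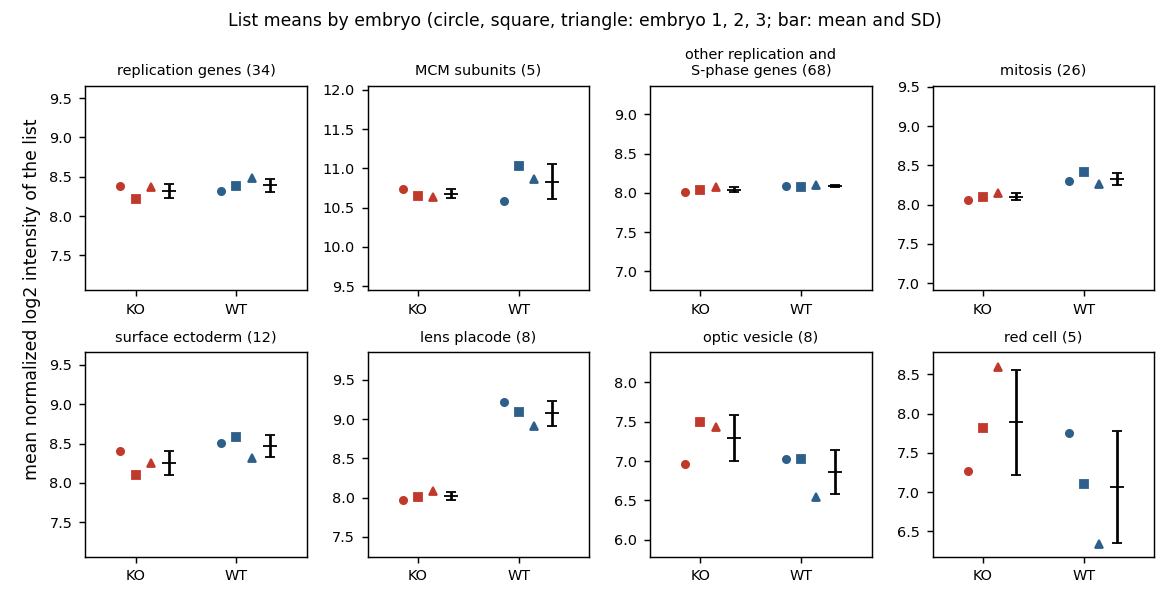
Mean normalized log2 intensity of each gene list in each embryo, knockout left of wild type, with the number of genes in brackets and mean and SD beside the points; every panel spans the same log2 range. Means of the replication genes overlap between genotypes. Those of mitosis, lens placode and, by a narrow margin, other replication and S-phase genes do not. Red cell means vary most within a genotype.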

How the data were processed

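RNA of 6 embryos was measured on 1 array each, and the labels give all arrays 1 chip number. The deposited table holds linear intensity (mean bead brightness), not normalized between arrays. GenomeStudio is named in the submitters' processing notes, with no version. Beside each intensity the deposited table gives a detection p-value, the count of beads averaged and the bead standard error of the signal. A second deposited table holds background-subtracted intensity in the same rank order. Its array medians were level, at 7.49 to 7.51, against 41.7 to 49.8 in the first. It served as an alternative after adding 16. How it was made was not found in the labels.

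Intensities were corrected by normexp from the detection p-values (offset 16), quantile normalized and brought to log2 (neqc steps, limma 3.58.1, R 4.3.3). A probe was kept where 3 or more arrays had a detection p-value below 0.05. The brightest probe stood for a gene, and unnamed probes stood alone, 14686 in all. Symbols came from GEO's platform annotation, updated through RefSeq identifiers. Of 46632 probes, 29976 had 1 symbol, 10 several and 16646 none. Genotype was tested with lmFit and eBayes (variance trend), with Benjamini-Hochberg adjustment over all 14686. Values of further probes come from the same fit over all 19381 probes. The fit was run on simulated normal values drawn with its own fitted spread, which cannot show whether its assumptions hold for these arrays. No set test was run.

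The members, lists, tests and the rule for named genes were chosen with earlier results of these data known. Full values were given for the MCM subunits, the 10 genes of the list with the smallest p and those with groups apart. Of the other pathway genes, the 3 with the smallest p in each direction were named. The p-values rest on the spread between embryos, moderated for each gene by that of other genes of like brightness. The number of arrays limits precision. Alternatives are given in the closing section.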

Additional observations from a re-analysis of the deposited data

How the results depend on the processing

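Of the 34 replication genes, 0 passed the adjusted threshold under each of the 18 alternatives, and likewise 0 of their probes under each alternative that tests single probes. Over everything tested the count of calls was 23, and it was 6 with no filter on dim probes, 69 with the stricter filter, 1 with the replicate block and 1 to 6 when 1 array was left out. Same-numbered embryos did not deviate together (correlations -0.047, -0.024 and -0.036). Whether they were collected as pairs cannot be told from these values. The median difference of the replication genes was -0.068. It was -0.26 with median scaling, which moved the median of everything tested to -0.15, and 69.3% of everything tested was then lower. Without 1 array the median was -0.15 to -0.025 and 18 to 25 of 34 genes were lower. Of 252 values of the 14 genes given in full, 242 kept their direction. That count includes values that could not turn. The filters, the fits without variance trend or with robust variance, the test of every probe and the replicate block returned the main differences. With the mean of probes Mcm4 was 0.047, Mcm7 0.041 and Rfc2 -0.23, each of opposite sign to the brightest probe. Without 1 array Mcm2 ran from -0.54 to 0.0049, Mcm5 from -0.096 to 0.028 and Mcm7 from -0.13 to 0.043. The cause of these turns was not tested. The number of replication genes with an unadjusted p under 0.05 was 1 to 3. Dim genes (Orc2, Pola1, Pola2) read near the background, which limits what their values show.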
